A study of Danio rerio with 6 samples.

Results

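Heme is made from glycine and succinyl-CoA in a pathway that begins and ends in the mitochondrion, with its middle steps in the cytosol. The first enzyme, 5-aminolevulinate synthase, comes in a form used by all tissues (alas1) and a red cell form (alas2), and red cells are the largest users of heme because they fill themselves with hemoglobin. Zebrafish mutants with pale or missing red cells named many of these genes: alas2 is sauternes, urod is yquem, fech is dracula, ppox is montalcino, slc4a1a is retsina and gata1a is vlad tepes. The genes described here are 10 of the 24470 gene IDs in the deposited table, chosen by symbol: the heme synthesis enzymes alas1, alas2, alad, urod, cpox, ppox and fech, and the red cell genes cahz, slc4a1a and gata1a. Each symbol stood on 1 gene ID, and all 10 passed the filter of a mean of at least 10 normalized counts.

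Messenger RNA was sequenced from whole larvae of the transgenic line Tg(Brn3C:mGFP), a hair cell reporter with green fluorescent protein at the membrane, in both groups. The treated group had 3 libraries of larvae exposed to 2.5 µM 4-octyl itaconate, a cell-permeable itaconate ester, for 48 h from 3 days post fertilization, and the other group had 3 control libraries; all were collected at 5 days. The labels attach the same treatment text to all 6 samples, so the groups were read from the titles and treatment labels. The sources used here give neither the vehicle of the controls nor how many larvae or clutches went into a library. The p-values therefore reflect the spread among these 6 samples only, and that spread may be technical. Values are normalized counts, that is gene counts divided by 1 factor per library, and 14763897 to 23507208 reads were recovered per library.

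Larvae given 4-octyl itaconate held more transcripts of the 7 heme synthesis enzymes among the members and of slc4a1a and gata1a than control larvae, and less of cahz. In those 9 genes all 3 treated libraries lay above all 3 control libraries, and folds ran from 1.78 for alad and cpox to 9.05 for urod. By limma at an adjusted p of 0.05, 9 of 10 members rose and 1, cahz, fell; their log2 fold changes had a median of 1.71, against 0.01 for all tested genes. The contrast was broad: 35.0% of the 20352 tested genes rose, 34.3% fell and 37.4% lay higher with no overlap between groups. That near balance of 7115 rises and 6983 falls depends on the scaling: 8494 genes rose and 5700 fell with upper-quartile scaling, and 5246 rose and 8890 fell with total reads without mitochondrially encoded genes, where 6 members rose and 1 fell. On the recovered reads edgeR called the same 9 members higher and none lower, where it called 36.0% of genes higher and 32.9% lower. DESeq2 did likewise, with 35.5% of genes higher and 33.6% lower; cahz is the member both left out. In whole larvae, a change in the number of cells of a type and a change in RNA per cell cannot be told apart. Nor can either be told apart here from a difference in the material collected for each group. Marker shares of reads differed widely: treated over control they were 45.6-fold for hepatocytes, 5.71-fold for skeletal muscle, 0.115 for neurons and 0.142 for eye. With mitochondrially encoded genes left out of the total they were 36.0, 4.51, 0.0908 and 0.112, in that order. The part of these tissue differences in the values of the members was not tested. Treated replicate 1 stood apart from the other treated libraries, with 0.198% of its reads on 6 eye markers against 0.035% and 0.0507%, and 0.792% on globin genes against 0.284% and 0.303%.

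**Figure D1:**
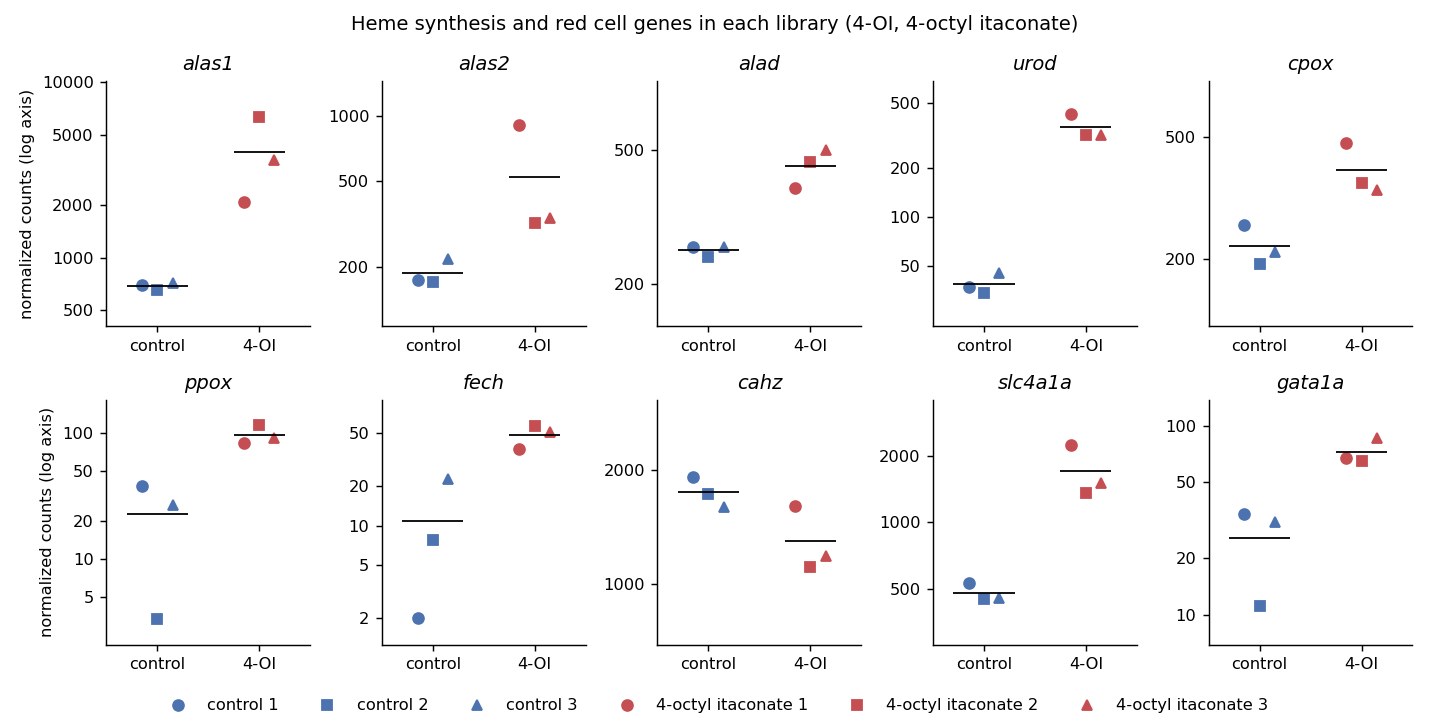
Normalized counts (log axis) of the 10 genes in each of the 3 control and 3 treated libraries, with horizontal lines at the group means. Treated points lie above every control point in all panels but cahz, alas2 is highest in treated replicate 1 at 909, and alas1 is highest in treated replicate 2 at 6299.

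The first step is catalysed by the synthases. Transcripts of alas1 (ENSDARG00000021059) stood at 2068, 6299 and 3605 normalized counts in treated replicates 1 to 3, against 699.8, 653 and 715 in the controls. The treated libraries thus differed 3.05-fold among themselves, while the controls lay within 1.09-fold of each other, and the groups did not overlap. The mean rose 5.79-fold, from 689 ± 32.0 to 3991 ± 2142 (SD, n = 3 per group; log2 fold change 2.39, SE 0.34, limma adjusted p = 2.46e-04). In the same larvae 8 of 8 hepatocyte markers rose, and the liver is a tissue in which alas1 is known to be strongly used. Those markers took 1.41% to 1.49% of reads in treated and 0.0287% to 0.0371% in control libraries, none was at 0 in any library, and their part in the rise of alas1 was not tested.

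Values for alas2 (ENSDARG00000038643), the red cell synthase, were 909, 319 and 338 in treated and 174, 171 and 218 in control libraries. Treated replicates 2 and 3 thus lay close above the controls and replicate 1 far above them. The mean was 2.78-fold higher (188 ± 26.4 against 522 ± 335; log2 fold change 1.3, SE 0.37, adjusted p = 0.0122 by limma). When treated replicate 1 was left out the fold was 1.75 and the log2 fold change 0.81, still past the limma threshold (adjusted p = 0.0022). The log2 ratio of alas2 to alas1 was -1.19, -4.30 and -3.42 in treated libraries and -1.88 ± 0.15 (SD) in the 3 controls. Its mean differed by -1.09 between treated and control larvae, but the groups overlapped and the exact two-sided permutation test gave p = 0.4, where 0.1 is the smallest that 3 against 3 libraries allow. Without treated replicate 1 the difference was -1.98 with an exact p of 0.1, also the smallest those libraries allow. Without treated replicate 2 it was -0.42 (exact p = 0.7).

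The second enzyme, encoded by alad (ENSDARG00000100372), joins 2 molecules of aminolevulinate into porphobilinogen. Its level was 386, 461 and 500.2 normalized counts in treated and 258, 240 and 258 in control libraries, with little spread in either group. It rose 1.78-fold (log2 fold change 0.82, SE 0.17, limma adjusted p = 0.00195). The next enzymes, hydroxymethylbilane synthase and uroporphyrinogen III synthase, are outside the 10 genes, and their 3 genes went different ways. Of the hydroxymethylbilane synthase genes, hmbsa rose 2.05-fold (limma adjusted p = 6.36e-04) and hmbsb, at 592, 333 and 477 in treated and 389, 339 and 358 in control libraries, did not pass (log2 fold change 0.33, limma adjusted p = 0.204). The gene of uroporphyrinogen III synthase, uros, fell, from 422, 359 and 410.2 in controls to 294, 186 and 176 in treated libraries (log2 fold change -0.90, SE 0.22, limma adjusted p = 0.00628). The groups did not overlap for uros, which moved opposite to hmbsa before it and urod after it.

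With all 6 libraries the largest fold among the enzymes was that of urod (ENSDARG00000006818), which removes carboxyl groups from uroporphyrinogen in the last step wholly in the cytosol. It stood at 423, 316 and 317 normalized counts in treated and 37.1, 34.4 and 45.1 in control libraries. The lowest treated library was thus far above the highest control library, and the spread within each group was small. The rise was 9.05-fold, from 38.9 ± 5.55 to 352 ± 61.3 (log2 fold change 3.14, SE 0.23, adjusted p = 5.66e-06 by limma), and 94.3% of tested genes had a lower log2 fold change. Its first place among the enzymes did not hold on every measure when 1 control was left out. Without control replicate 3 fech was 9.94-fold and urod 9.84-fold higher by group means, and both had a log2 fold change of 3.25. Without control replicate 1 the log2 fold change, but not the fold of group means, put ppox first, at 3.14 against 3.11 for urod. By contrast cpox (ENSDARG00000062025), whose enzyme makes protoporphyrinogen IX, moved from 257, 192 and 210.0 to 479, 355 and 336. Its 1.78-fold rise (log2 fold change 0.82, SE 0.20, limma adjusted p = 0.00598) was as small as that of alad.

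The last 2 enzymes had low counts in the controls, so their folds are imprecise. Oxidation to protoporphyrin IX is carried out by the product of ppox (ENSDARG00000102167), at 83.0, 116 and 91.6 normalized counts in treated and 38.1, 3.33 and 26.8 in control libraries. The control values rest on 38, 3 and 19 reads. The rise was 4.26-fold (log2 fold change 2.53, SE 0.73, adjusted p = 0.0126 by limma). That log2 fold change was 1.56 when control replicate 2 was left out. Iron is inserted by ferrochelatase, encoded by fech (ENSDARG00000003462), at 38.1, 56.2 and 51.5 in treated and 2.01, 7.78 and 22.6 in control libraries, the latter from 2, 7 and 16 reads. Treated libraries agreed within 1.48-fold for fech, whereas the controls spanned 11.2-fold. It rose 4.51-fold (log2 fold change 2.52, SE 0.69, limma adjusted p = 0.00982), with a log2 fold change of 1.77 without control replicate 1 and of 3.25 without control replicate 3.

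**Figure D2:**
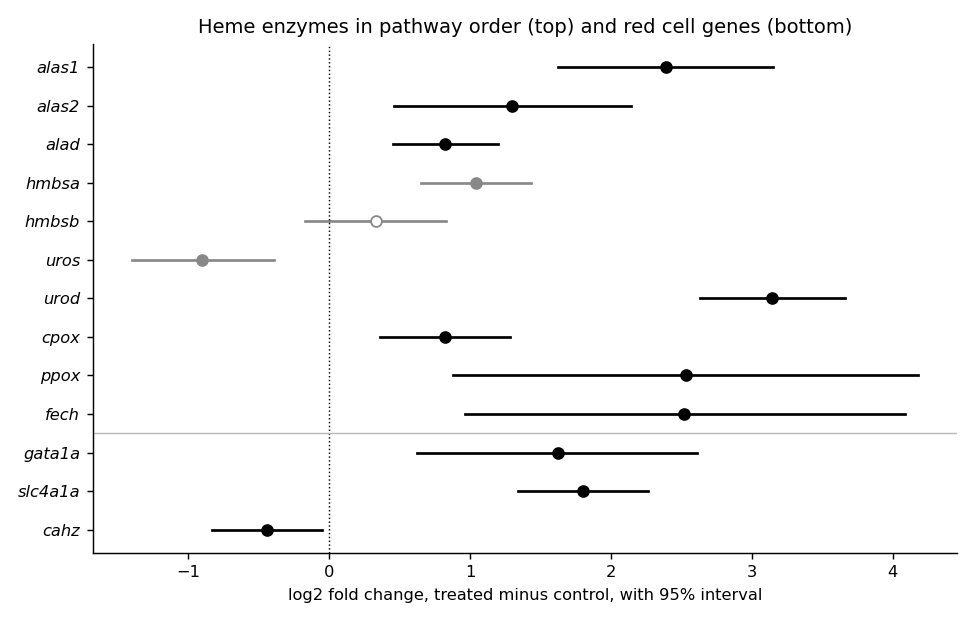
Log2 fold change (treated minus control, limma on log2(normalized count + 1)) with its 95% confidence interval for the heme enzymes in pathway order and the 3 red cell genes; black marks the 10 genes, grey the pathway genes hmbsa, hmbsb and uros, and an open point one that did not pass. The point of urod is farthest to the right at 3.14, the intervals of ppox and fech are the widest, and uros and cahz lie left of 0.

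Around the enzymes, genes that feed the pathway in the mitochondrion were divided. Over all tested genes 35.0% rose and 34.3% fell. Of the 28 tested in this list, 15 rose, 5 fell and 8 did not pass (median log2 fold change 0.85). Of those with the smallest p, clpxb rose 7.15-fold, pgrmc1 7.0-fold and tmem14ca 3.66-fold (limma adjusted p of 5.26e-06, 1.42e-05 and 1.98e-05). ClpX is an unfoldase that activates aminolevulinate synthase in yeast, PGRMC1 binds ferrochelatase in mammalian cells, and TMEM14C serves porphyrin import into mammalian mitochondria. The other ClpX gene, clpxa, was level at 1874, 1634 and 1527 in treated and 1694, 1657 and 1704 in control libraries (log2 fold change -0.01, limma adjusted p = 0.948). The 2 genes of the mitochondrial glycine carrier went opposite ways: slc25a38a rose 4.05-fold and slc25a38b fell by 2.01 on the log2 scale (limma adjusted p = 0.00104 and 7.00e-06). So did the mitoferrin genes, which encode iron importers. The mutated gene of frascati, slc25a37, rose 4.49-fold from a control level of 5.01, 3.33 and 2.82 (limma adjusted p = 0.0264). Those control values rest on 5, 3 and 2 reads, so the fold is imprecise. The other, slc25a28, fell by 0.64 on the log2 scale (limma adjusted p = 0.0313).

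Iron uptake and storage genes were higher in 14 of 20 cases and lower in 2 by limma (median log2 fold change 1.51). Of all tested genes 35.0% were higher and 34.3% lower. The transferrin receptor gene tfr1a, mutated in chianti and needed by zebrafish red cells, went from 23.1, 25.6 and 18.3 normalized counts to 263, 359 and 433, a 15.8-fold rise (limma adjusted p = 4.59e-06). Its paralog tfr1b rose 2.59-fold. Transferrin itself (tfa), the ferritin gene fth1a and aco1, whose product doubles as an iron sensor in mammals, rose 12.5-fold, 3.13-fold and 7.11-fold, with limma adjusted p of 3.33e-06, 1.22e-05 and 1.29e-05. Transferrin is a plasma protein of the liver and tfa is also among the hepatocyte markers given above, whose part in these rises was not tested. The genes that fell were fth1b, another ferritin gene, and pcbp2 (log2 fold change -0.88 and -0.82, limma adjusted p = 0.00190 and 0.00359).

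Genes of heme breakdown and handling moved up with the synthesis enzymes in 11 of 17 tested cases, and 1 fell (median log2 fold change 1.59). The shares over all tested genes were 35.0% up and 34.3% down. Heme oxygenase gene hmox1a, which opens the heme ring, was at 729.8, 467 and 499 normalized counts in treated and 25.1, 52.2 and 24.0 in control libraries. The groups stood far apart, with a 16.7-fold rise (log2 fold change 4.09, SE 0.33, limma adjusted p = 1.01e-05). The heme-binding protein gene hebp2 rose 3.05-fold (limma adjusted p = 7.14e-05). The 1 gene that fell was flvcr1, described in mammals as a heme exporter, by 2.50 on the log2 scale (limma adjusted p = 7.29e-06). The symbol hp, for the hemoglobin-binding plasma protein haptoglobin, stood on 2 gene IDs, of which 1 rose 37.8-fold and the other did not pass, and reads can be divided between such IDs.

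**Figure D3:**
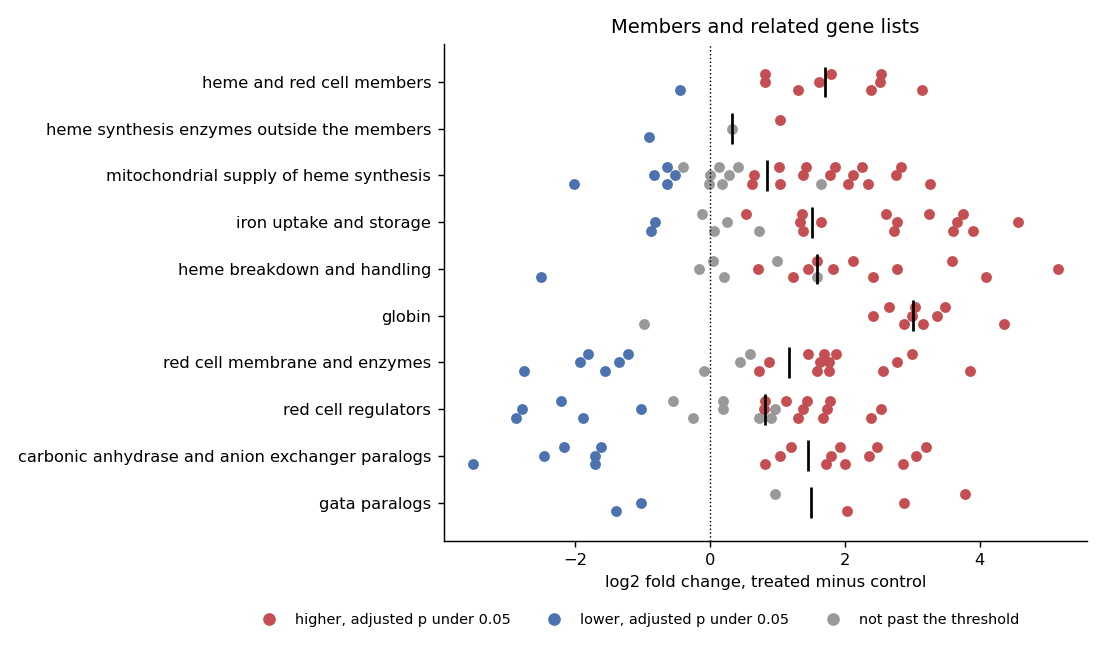
Log2 fold change of each tested gene (points, red higher and blue lower at an adjusted p under 0.05, grey not past) for the 10 members and 9 related lists, with the list median as a black bar. The globin list has the median farthest right at 3.01, and every row holds points on both sides of 0. Left of 0 lie only cahz among the members and only hbbe3 among the globin genes.

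The remaining 3 members belong to the red cell itself. Transcription factor gene gata1a (ENSDARG00000013477), which directs red cell differentiation, was at 67.3, 65.2 and 85.9 normalized counts in treated and 34.1, 11.1 and 31.0 in control libraries. Control replicate 2, with 10 reads, was the lowest, and the groups did not overlap. It rose 2.87-fold (log2 fold change 1.62, SE 0.44, limma adjusted p = 0.00927). The anion exchanger gene slc4a1a (ENSDARG00000012881), for band 3 of the red cell membrane, stood at 2245, 1363 and 1511 in treated and 533, 448 and 454 in control libraries. It rose 3.57-fold (log2 fold change 1.80, SE 0.20, limma adjusted p = 6.14e-05), with the groups far apart.

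Carbonic anhydrase gene cahz (ENSDARG00000011166), whose enzyme interconverts carbon dioxide and bicarbonate in red cells, did not move with them. Its level was 1606, 1111 and 1187 normalized counts in treated and 1909.9, 1724 and 1598 in control libraries, so that treated replicate 1 lay within the control range. The mean fell from 1744 ± 157 to 1302 ± 267 (log2 fold change -0.44, 95% interval -0.83 to -0.05, limma adjusted p = 0.046). The call is fragile and depends on the scaling. It was lost without treated replicate 2 or 3 or any 1 control (adjusted p 0.0701 to 0.154), and by edgeR and DESeq2 (adjusted p = 0.0897 and 0.0702). It was firmer without treated replicate 1 (log2 fold change -0.60, limma adjusted p = 0.00142) and with total reads without mitochondrially encoded genes (-0.88, limma adjusted p = 0.00114). The gene is also known from Müller glia of the zebrafish retina. Of 6 Müller glia genes listed after the value of cahz had been seen, glula, rlbp1a, gfap and slc1a2b fell and apoeb and cav1 rose, and all 6 eye markers of photoreceptors fell. The 6 Müller glia genes had a median log2 fold change of -1.79. Their summed share did not fall, at 0.162% to 0.243% of reads in treated and 0.174% to 0.186% in control libraries. Such a sum mainly follows the genes with the most reads. The eye markers took 0.035% to 0.198% of reads in treated and 0.513% to 0.834% in control libraries, and none was at 0. The part of either cell type in the value of cahz was not tested.

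Relatives of cahz and slc4a1a were measured too. Among 18 tested carbonic anhydrase and anion exchanger genes, 12 rose and 6 fell, beside 35.0% and 34.3% of all tested genes. In this list the falls with the smallest p were those of ca16b and ca10a, by 2.46 and 2.16 on the log2 scale (limma adjusted p = 1.66e-05 and 1.70e-05). By size the largest fall was that of ca14 (log2 fold change -3.51, limma adjusted p = 0.00304). Among the rises slc4a1b was 9.76-fold and ca15a 8.79-fold higher (limma adjusted p = 4.40e-05 and 4.71e-05). Both of the latter are known from ionocytes of the skin, of whose 6 markers, ca15a included, 4 rose and 2 fell. Their summed share was 0.0229% to 0.0274% of reads in treated and 0.025% to 0.0283% in control libraries. In the controls most of that share was atp6v1aa, which fell from 4884, 4169 and 3951 normalized counts to 1949, 2956 and 3163. The other fall was slc12a10.2, while trpv6, foxi3a and foxi3b rose 26.1-fold, 11.1-fold and 2.81-fold. Of 6 other Gata genes, gata4, gata5 and gata6, of heart, liver and gut, rose 19.4-fold, 4.09-fold and 7.23-fold. The control values of gata4 rest on 3, 1 and 2 reads, so its fold is imprecise. In the same list gata3 and gata2a, which neurons use as well, fell by 1.39 and 1.02 on the log2 scale (limma adjusted p = 8.44e-05 and 0.0055), and gata2b did not pass (limma adjusted p = 0.133).

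Other red cell genes showed where the members sat. In the list of membrane proteins and enzymes 13 of 22 rose and 6 fell, beside 35.0% and 34.3% of all tested genes. The ammonia channel gene rhag, of the red cell Rhesus complex, rose from 879, 609 and 789 to 7187, 5069 and 6020.2 normalized counts, and the pyruvate kinase gene pklr, of liver and red cells, 5.89-fold (limma adjusted p = 2.94e-06 and 2.46e-06). The spectrin gene sptb, mutated in riesling, rose 3.43-fold, while epb41b, the band 4.1 gene mutated in merlot and chablis, was level at 209, 126 and 169.9 in treated and 229.6, 117 and 200.2 in control libraries (log2 fold change -0.09, limma adjusted p = 0.805). The smallest p belonged to tmod4, a tropomodulin gene of skeletal muscle as well (14.5-fold, limma adjusted p = 6.30e-07), and add2, an adducin gene also used in neurons, fell by 2.76 on the log2 scale. The other falls were those of ank1b (log2 fold change -1.92), dmtn (-1.81), bpgm (-1.56), xk (-1.21) and 1 gene ID of ank1a (-1.35). The symbol ank1a stood on 2 gene IDs, and the other rose (2.77). Skeletal muscle markers rose in 8 of 8 cases, from 0.603% to 0.627% of reads in controls to 3.12% to 3.85%, and neuron markers fell in 7 of 7, from 0.393% to 0.425% to 0.0343% to 0.0552%; no marker of either list was at 0. Their part in the values of tmod4 and add2 was not tested.

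Regulators of the red cell lineage were divided as well, with 11 rises and 5 falls among 23 tested, beside 35.0% and 34.3% of all tested genes. The summed share of these regulators was 0.0180% to 0.0218% of reads in treated and 0.0529% to 0.0560% in control libraries. The 4 with the smallest p all fell: tal1, ldb1a, trim33 and bcl11aa, by 2.88, 1.88, 2.79 and 2.21 on the log2 scale (limma adjusted p of 3.75e-06 to 4.47e-05). All 4 are blood regulators that neural or other tissues also express, and trim33 is the gene mutated in moonshine. Among the 11 rises klf1, for a factor that switches on globin and heme genes in mammals, went from 10.0, 4.44 and 5.64 to 61.7, 25.9 and 44.9, and the erythropoietin receptor gene epor from 2.01, 4.44 and 4.23 to 26.9, 14.6 and 26.7 (limma adjusted p = 0.00158 and 0.00372). Their control values rest on few reads, 10, 4 and 4 for klf1 and 2, 4 and 3 for epor. The red cell factor genes nfe2 and lmo2 did not pass (limma adjusted p = 0.0552 and 0.617). Neuron markers fell in the same larvae, as given above, and their part in the falls of tal1, ldb1a and bcl11aa was not tested.

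The globin genes give a yardstick within each library. Summed over the 10 globin gene IDs matched, they stood at 175458, 57579.6 and 68017 normalized counts in treated and 10232, 8919 and 13410.3 in control libraries. The sum was 9.25-fold higher in treated larvae, and 5.79-fold without treated replicate 1; 9 of the 10 IDs rose and hbbe3 did not pass. These genes are near-identical in part, so reads can be divided between them, which the sum avoids where the reads stay among them. Relative to it, 5 of the 10 members were lower in every treated library than in any control (alas2, alad, cpox, slc4a1a and cahz), as were 82.1% of all tested genes, so a lower ratio was the common case in these libraries. Their log2 ratios to globin differed by -1.74, -2.22, -2.22, -1.24 and -3.48 (treated minus control), each with an exact two-sided permutation p of 0.1, the smallest possible, and 0.2 after Benjamini-Hochberg adjustment over the 10 ratios. For the other 5 the groups overlapped: the difference was 0.13 for urod, -0.28 for fech, -0.37 for ppox, -0.66 for alas1 and -1.38 for gata1a, with exact p of 0.2 to 0.8.

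**Figure D4:**
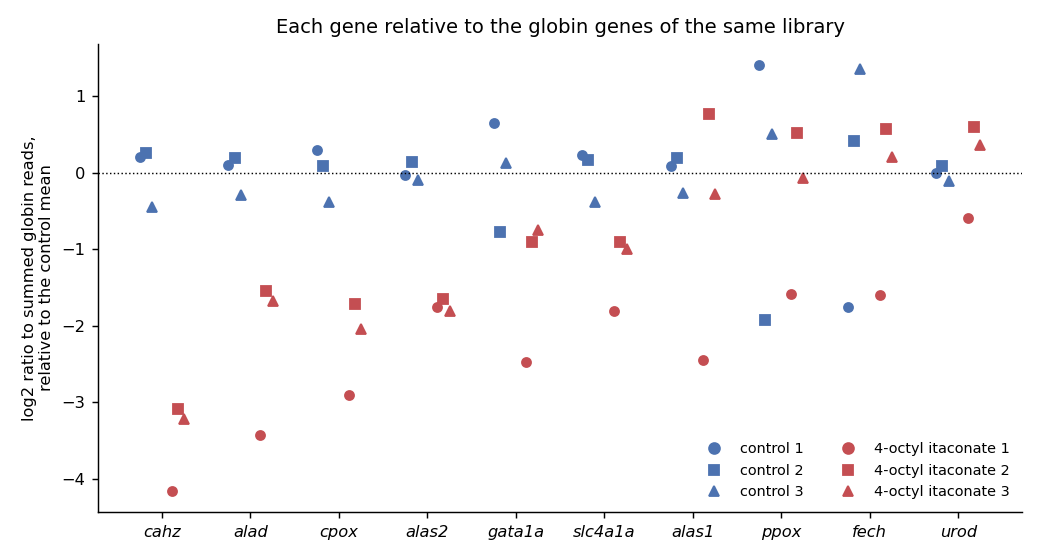
Log2 ratio of each gene's reads to the summed globin reads of the same library, relative to the control mean, for 3 control and 3 treated libraries. For cahz, alad, cpox, alas2 and slc4a1a every treated point lies below every control point, the treated points of alas2 fall almost together, and urod straddles 0.

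Within the treated group the members did not vary together. The ratio of alas2 to globin was -7.59, -7.49 and -7.65 on the log2 scale in the 3 treated libraries, an SD of 0.08, although both alas2 and globin were highest in treated replicate 1. For the other members that SD was 0.49 to 1.64. Treated replicate 1 held 2.77 times the mean of replicates 2 and 3 for alas2 and 2.79 times for the globin sum; 95.2% and 95.3% of tested genes had a lower ratio, and the median of all was 0.985. The ratio was 1.56 for slc4a1a, 1.40 for cahz, 1.38 for cpox and 1.34 for urod. It lay below 1 for gata1a, alad, ppox and fech, at 0.890, 0.802, 0.800 and 0.707, and was lowest for alas1, at 0.418, under which 4.40% of tested genes fell. These are descriptions of 3 libraries and carry no test.

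**Figure D5:**
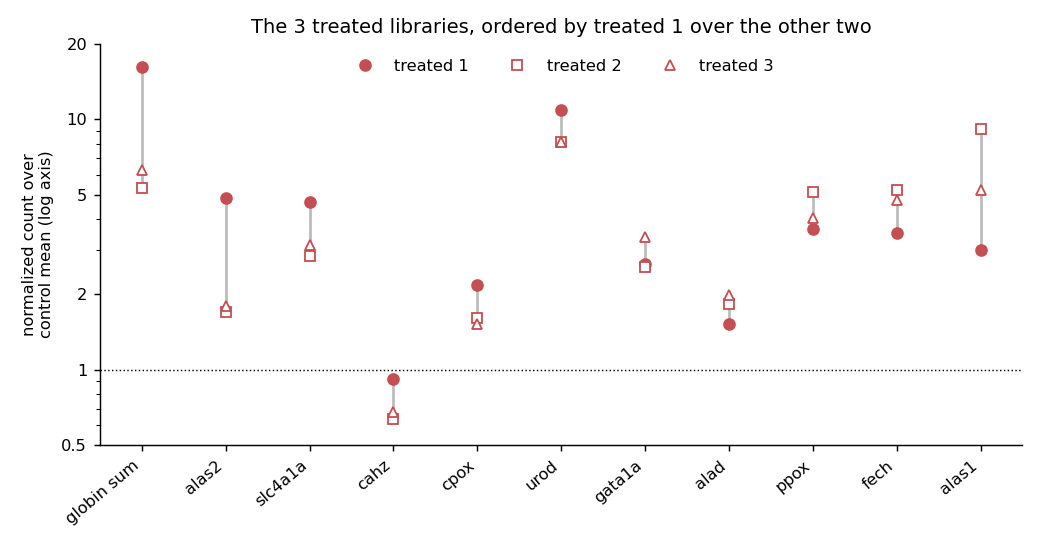
Normalized count of each member and of the globin sum in the 3 treated libraries, divided by the control mean (log axis; dotted line at 1), ordered by treated replicate 1 against the other treated libraries. Treated replicate 1 (filled) is the highest point for the globin sum, alas2, slc4a1a, cahz, cpox and urod and the lowest for alad, ppox, fech and alas1.

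Genes with the most similar profile over the 6 libraries were sought among 15480 named genes with a mean of at least 50, by the root mean square difference of centred log2 values. Nearest to alas2 were cldn23a (0.06), csrnp1a (0.11), hbegfa (0.12), apip (0.12) and BX936337.1 (0.12). The claudin gene cldn23a stood at 697, 259 and 265 normalized counts in treated and 126, 124 and 166 in control libraries, the same order as alas2 within the treated group. For alas1 the nearest were inpp5d (0.16), sgpl1 (0.20), add1 (0.20), ildr1a (0.21) and ppip5k1b (0.21), all highest in treated replicate 2. The profile of cahz was closest to those of rgp1 and tmem181 (0.04 each), enc3 (0.05), gkap1 (0.06) and ccl44 (0.07). None of these 15 genes is in the lists of heme, iron or red cell genes, which name the adducin gene add2 but not add1. With 6 libraries such likeness rests mainly on the difference between groups and on treated replicates 1 and 2.

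Other blood and vessel cells were followed by their markers. Neutrophil markers rose in 7 of 7 gene IDs, from 0.00224% to 0.00282% of reads in controls to 0.0841% to 0.151%, although cpa5, which is also a pancreas gene, made up most of that share in treated libraries. Macrophage markers rose in 4 of 6 cases. Of 3 tested thrombocyte markers 2 rose, fn1b and gp9, the latter from 2, 1 and 1 control reads, and gp1bb did not pass (limma adjusted p = 0.134). The thrombocyte markers itga2b and mpl were too low to be tested. Their summed reads were 19 in treated and 22 in control libraries for itga2b, and 10 and 5 for mpl. Over all tested genes 35.0% rose. Endothelial markers rose in 6 of 8 cases, and cdh5 fell. Of 12 red cell markers tested, 4 of them members, 10 rose, cahz fell and epb41b did not pass. Their share was 0.0462% to 0.0559% of reads in control and 0.227% to 0.515% in treated libraries. The globin genes among them made up most of that share in every library.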

How the data were processed

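The normalized counts (signal values) deposited by the authors are gene counts over a size factor of each library. The submitters' processing notes list DESeq2 (no version), Salmon 1.9.0, STAR 2.7.10a, fastp 0.23.2 and bcl2fastq 2.20.0.422 with build GRCz11; what each tool did, any filter and strand handling are not given in those sources. Division by the smallest step of a library gave back whole reads, with 100% of values within 0.01 of a whole number. The test used limma 3.58.1 (R 4.3.3) on log2(normalized count + 1) for the 20352 genes whose mean reached 10 (intensity trend, two-sided, no covariate, Benjamini-Hochberg adjustment over all tested genes); 4118 were left out. Log2 fold changes are on this scale, where the added 1 shrinks changes of low genes; folds in the text compare group means, and the log2 of such a fold can lie above or below the log2 fold change. Ratios and read shares were compared by exact two-sided permutation over libraries. Alternatives varied pseudocount, filter, scaling, limma options, replicate block and libraries, and put the recovered reads through DESeq2 1.42.0 and edgeR 4.0.16. The limma procedure was tested on simulated data with few changed genes, balanced up and down. That setting does not cover a contrast as broad as this one. Figures used Python 3.11.15 and matplotlib 3.10.9.

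Members and lists were chosen with earlier results of these data known. The text names the 10 members, up to 4 genes per list with the smallest p, and the 5 nearest profiles. Other list genes were named for their known roles or their change, after their values were seen. No sequence, coordinate or gene length was used, so levels were not compared between genes. List genes were matched by symbol: 3 of 4 pathway enzymes, 28 of 32 mitochondrial, 20 of 22 iron, 17 of 19 heme handling, 9 of 15 globin, 22 of 24 membrane and 26 of 28 regulator names.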

Additional observations from a re-analysis of the deposited data

How the results depend on the processing

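The 9 members that rose kept a positive log2 fold change under every alternative in which they were tested. At a mean of at least 50, fech and gata1a were not tested, and 7 members were higher and 1 lower. Of all 15508 genes tested at that filter, 5502 were higher and 6093 lower. After scaling to total reads without mitochondrially encoded genes, which shifted the median of all tested genes by -0.44, alas2, alad and cpox had 0.86, 0.38 and 0.37 and did not pass (limma adjusted p = 0.0586, 0.0762 and 0.118); upper-quartile and total-read scaling shifted it by 0.32 and -0.11. The fall of cahz was not called, leaving 0 members lower, with TMM scaling (-0.40), upper-quartile scaling and quantile normalization (-0.12 each), limma without trend (-0.44), edgeR (-0.38) and DESeq2 (-0.41). Of all tested genes 6827, 5700, 6907, 6816, 6698 and 6844 were lower in these settings, in that order. It was called with total reads (-0.54), total reads without mitochondrially encoded genes (-0.88) and library weights in limma (-0.55). With each library left out in turn the log2 fold change of cahz ran from -0.60 to -0.33. In these fits 0 or 1 members and 6148 to 7415 of all tested genes were lower. The cause was not tested.

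Leaving out libraries turned the sign of some ratios to globin, none of them called: over these settings the log2 difference ran from -1.37 to 0.24 for alas1, -0.11 to 0.49 for urod, -1.33 to 0.33 for ppox and -1.16 to 0.40 for fech. The share of reads on hmbsa, hmbsb and uros differed by 0.05 on the log2 scale, by -0.07 to 0.15 with a library left out (-0.07 without treated replicate 1) and by -0.28 without mitochondrially encoded genes in the total; for the carbonic anhydrase and anion exchanger genes 0.26 became -0.08 in the latter. Deviations of same-numbered libraries correlated at -0.0212, -0.0574 and 0.0497, and those of differently numbered libraries at -0.0497 to 0.0713. Same-numbered libraries were thus no more alike than others, which cannot show whether the design paired them. With a replicate block 6900 genes were higher and 6779 lower, with 9 members higher and 1 lower.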
